A study of Mus musculus with 6 samples.

Results

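The genes described here are the autophagy genes of mouse dysplastic stem cells. They were chosen by gene symbol, as every symbol that starts with Atg and a number together with 16 further symbols of the same machinery (Map1lc3a, Map1lc3b, Gabarap, Gabarapl1, Gabarapl2, Becn1, Ulk1, Ulk2, Wipi1, Wipi2, Sqstm1, Optn, Nbr1, Rb1cc1, Pik3c3 and Uvrag). The rule reads gene symbols alone, and 33 of the 23420 gene rows matched it. The study sorted a pair of subpopulations of dysplastic stem cells (DSCs) by flow cytometry from Meta4, a mouse epithelial organoid line, and sequenced polyadenylated RNA from 3 TP-DSC and 3 DP-DSC libraries. As known from the published study rather than the labels, TP-DSCs carry CD44v6 on the surface in addition to the CD133 and CD166 that both populations carry, and Meta4 was grown from dysplastic mouse stomach, an origin both groups share. The labels give no genotype, age or treatment. All samples come from a single organoid line. The labels call them independent without saying whether separate cultures were used, so each p-value reflects the variation among these 6 libraries alone, some or all of which may be technical.

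Autophagy encloses parts of the cytoplasm in a double membrane, the autophagosome, and delivers them to the lysosome. The ULK1 kinase complex starts the process, a PI3-kinase complex marks the growing membrane with a phosphorylated lipid, ATG9 vesicles and ATG2 lipid bridges feed it, and a ubiquitin-like conjugation system attaches proteins of the Atg8 family (the LC3 and GABARAP proteins) to it. Receptors such as p62 (gene Sqstm1) tie cargo to these Atg8 proteins. Much of the pathway is controlled by protein modification and turnover, which transcript levels do not measure.

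Reads assigned to genes ranged from 17015581 to 31068454 in TP-DSC libraries and from 27027919 to 32671039 in DP-DSC libraries. Genes with at least 1 read ranged from 10571 to 10982 in TP-DSCs and from 12504 to 14434 in DP-DSCs, with no overlap, so scarce genes were more often without reads in TP-DSCs. Reads in no gene made up 16.2 to 20.3% in TP-DSCs and 14.1 to 15.4% in DP-DSCs, again without overlap. The part of these differences in the results was not tested. The 5 epithelial markers Epcam, Cdh1, Krt8, Krt18 and Krt19 summed to 7446 to 9029 CPM (reads of a gene scaled to 1000000 gene reads of its library) in TP-DSCs and 7984 to 9758 CPM in DP-DSCs. The 3 endothelial and 5 immune markers, among them Pecam1 and Ptprc, were at 0 in all TP-DSC libraries and summed to at most 1.15 and 0.644 CPM in DP-DSC libraries. The 5 fibroblast markers, with Col1a2, Col3a1 and Dcn at 0 throughout, summed to at most 2.90 CPM in TP-DSCs and 3.19 CPM in DP-DSCs. Prom1, Alcam and Cd44, which encode CD133, CD166 and all forms of CD44, summed to 1307 to 1564 CPM in TP-DSCs and 1353 to 1809 CPM in DP-DSCs, so gene-level counts did not separate the sorted populations. The library names start with 3840 (1 library of each group, replicate 1 in both) or 4140 (the other 2 of each), a number the labels do not explain. Some gastric lineage markers went with that number rather than with the group. The chief cell genes Gif and Pgc had 40.8 and 26.2 CPM in TP-DSCs replicate 1 and 97.8 and 44.6 CPM in DP-DSCs replicate 1, against at most 2.57 CPM in any library named 4140. The mucous neck gene Tff2 had 110.4 CPM in TP-DSCs replicate 1 and 126.8 CPM in DP-DSCs replicate 1, against at most 0.980 CPM in the others. Other lineage markers did not follow the number in the same way. Muc6, also a neck gene, had 146.5, 77.4 and 11.9 CPM in TP-DSCs and 70.3, 1.04 and 11.5 CPM in DP-DSCs. The pit gene Tff1 had 47.7, 40.4 and 0 CPM in TP-DSCs and 59.1, 1.99 and 0.777 CPM in DP-DSCs. Dclk1, a tuft cell gene, had 9.38, 0 and 90.8 CPM in TP-DSCs and 2.95, 44.2 and 67.0 CPM in DP-DSCs. The part of these markers in the results was not tested.

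All 33 autophagy genes passed the filter on low counts and were tested. By edgeR's quasi-likelihood test none of them differed between TP-DSCs and DP-DSCs at an adjusted p (Benjamini-Hochberg) under 0.05, where the called share of all 11925 tested genes was 0%, and none did in DESeq2, where it was 0.78%. The smallest adjusted p among the 33 in edgeR was 0.768. At an unadjusted p under 0.05 edgeR picked 2 of the 33, Atg4d and Gabarapl1, both lower in TP-DSCs, which is 6.06% of them and near the background, since 6.1% of all tested genes lay under that threshold, 4.67% with lower and 1.43% with higher values in TP-DSCs. DESeq2 picked only Gabarapl1 of the 33, against a background of 4.18% lower and 1.93% higher. Of the 33 log2 fold changes (TP-DSCs over DP-DSCs), 21 lay below 0 and 12 above, a share below 0 of 63.6% against 51.8% of all tested genes. Their median was -0.17, beside -0.02 over all tested genes. On CPM as counted, 7 members had every TP-DSC library below every DP-DSC library, 21.2% of the 33 against 8.56% of tested genes, and 0 had every one above, against 3.87%. That count rests on the scaling. After TMM scaling, which the test uses, the groups of Gabarap, Gabarapl1, Pik3c3 and Sqstm1 overlapped by a few CPM and 3 members stayed separate (Atg16l2, Gabarapl2 and Atg4d), 9.09% against 8.88% of tested genes, with 0 higher against 4.03%. Scaled by DESeq2 size factors the same number, 3, were lower without overlap and 1, Atg4b, was higher, against 8.48% and 4.32% of tested genes. The share of members with separate groups was thus near the background on the scaled values. Fewer cells expressing a gene and less RNA per cell cannot be told apart in these bulk libraries. Exons of Atg4d, Gabarapl1, Sqstm1, Map1lc3b, Becn1, Atg9b and others of the 33 overlap those of a gene on the opposite strand in GENCODE M21 (Kri1 for Atg4d, 1700101I11Rik for Gabarapl1 and Mrnip for Sqstm1). Whether the counting used the strand is not given in the sources used here, so some reads in these rows may belong to the partner gene.

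**Figure D1:**
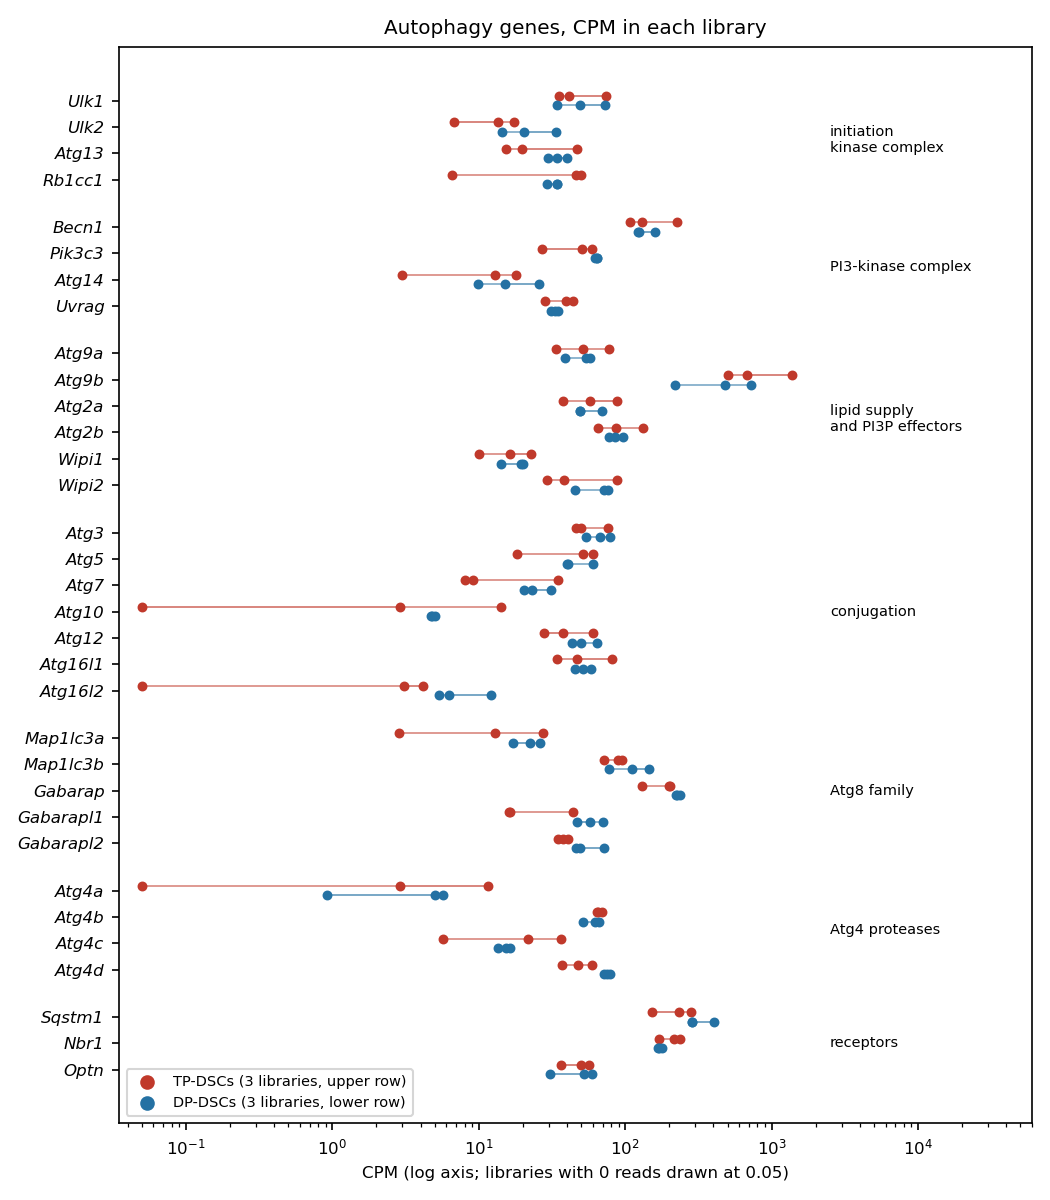
CPM of the 33 autophagy genes in each library on a log axis, grouped by role, with the 3 TP-DSC libraries in the upper row of each gene and the 3 DP-DSC libraries in the lower row. Atg9b has the highest mean in both groups, with 504 to 1369 CPM in TP-DSCs and 220 to 727 CPM in DP-DSCs, and the TP-DSC points are spread more widely than the DP-DSC points for most genes.

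The Atg8 family was the role with the most negative median log2 fold change, -0.55 over its 5 genes, and all 5 lay below 0. The same sign held for each of the 5 in each of the 15 settings computed (scalings, tests, filters and left-out libraries). So it did for Ulk2, Atg13, Pik3c3, Atg14, Wipi2, Atg3, Atg7, Atg12, Atg16l2, Atg4d and Sqstm1. The settings reuse the same libraries, and the share of all tested genes that kept their sign was not computed. Summed over the family, TP-DSC libraries held 358, 354 and 306 CPM, against 442, 503 and 481 CPM in DP-DSC libraries, so the sums did not overlap on this scale. Gabarapl1 (GABARAPL1, also known as GEC1) stood at 44.0, 16.2 and 16.3 CPM in TP-DSCs replicates 1, 2 and 3, against 70.8, 47.0 and 57.8 CPM in DP-DSCs replicates 1, 2 and 3. TP-DSCs replicate 1 lay just below the lowest DP-DSC library, and the other 2 TP-DSC libraries lay far below it. Its log2 fold change was -1.18 ± 0.50 (SE; 95% interval -2.36 to -0.01), a level 0.440 times that of DP-DSCs (edgeR unadjusted p = 0.0489, adjusted p = 0.808). The value turned on single libraries, and was -1.95 without TP-DSCs replicate 1 and -0.92 without TP-DSCs replicate 3. Gabarapl1 lies on chromosome 6 from 129533160 to 129542346 (GRCm38, plus strand) and has 4 exons in its principal transcript.

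Gabarapl2 (GATE-16), which acts late in autophagosome formation, had 40.9, 34.9 and 37.8 CPM in TP-DSCs and 46.1, 71.2 and 49.5 CPM in DP-DSCs. The TP-DSC libraries lay close together and below all DP-DSC libraries, on CPM and after TMM scaling. The log2 fold change was -0.55 ± 0.26 (SE; edgeR unadjusted p = 0.0671, adjusted p = 0.931). Gabarap, the founding member of the GABARAP branch, had 199, 201 and 130 CPM in TP-DSCs, against 225, 223 and 237 CPM in DP-DSCs. The DP-DSC libraries were nearly alike, and TP-DSCs replicate 3 was the low one. Its log2 fold change was -0.38 ± 0.23 (SE; edgeR adjusted p = 0.999).

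Map1lc3b (LC3B), the usual marker protein of autophagosomes, had 71.1, 89.6 and 94.9 CPM in TP-DSCs and 77.5, 145 and 112 CPM in DP-DSCs. The groups overlapped, DP-DSCs replicate 1 being lower than 2 of the TP-DSC libraries, and the log2 fold change was -0.40 ± 0.23 (SE; edgeR adjusted p = 0.999). Map1lc3a (LC3A), which was scarcer, had 2.85, 12.9 and 27.4 CPM in TP-DSCs and 22.4, 17.0 and 26.0 CPM in DP-DSCs. The highest and the lowest library were both TP-DSCs, and the log2 fold change was -0.67 ± 0.77 (SE; edgeR adjusted p = 0.999). Within the family, Gabarap took the largest share of reads, with a mean of 51.6% ± 7.98 in TP-DSCs and 48.1% ± 3.43 in DP-DSCs (SD, n = 3 each). The share of Gabarapl1 was 12.3, 4.56 and 5.31% in TP-DSCs and 16.02, 9.33 and 12.0% in DP-DSCs, so TP-DSCs replicate 1 lay among the DP-DSC libraries. These shares are of reads and not corrected for length.

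The ATG4 proteases cut Atg8 proteins before conjugation and release them from membranes afterwards. Atg4d was the member with the smallest p. The gene lies on chromosome 9 from 21265293 to 21277772 (GRCm38, plus strand). It stood at 59.2, 47.3 and 36.9 CPM in TP-DSCs, against 74.9, 71.8 and 79.0 CPM in DP-DSCs, and the groups were separate on CPM and after TMM scaling. The log2 fold change was -0.66 ± 0.27 (SE; 95% interval -1.29 to -0.02), a level 0.634 times that of DP-DSCs (edgeR unadjusted p = 0.0440, adjusted p = 0.768). Atg4b, the protease with the broadest activity on the family, had 63.9, 64.9 and 69.3 CPM in TP-DSCs and 51.7, 66.7 and 62.3 CPM in DP-DSCs, a log2 fold change of 0.12 ± 0.20 (SE; edgeR adjusted p = 0.999). The ratio of Atg4d to Atg4b reads within a library, which no scaling alters, was 0.925, 0.729 and 0.532 in TP-DSCs and 1.45, 1.08 and 1.27 in DP-DSCs. All TP-DSC ratios lay below all DP-DSC ratios. The pair was chosen after its values were seen, and not every ratio computed was separate in this way. Atg4c had 5.69, 21.7 and 36.3 CPM in TP-DSCs and 16.3, 13.4 and 15.2 CPM in DP-DSCs, and Atg4a at most 11.6 CPM in any library.

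**Figure D2:**
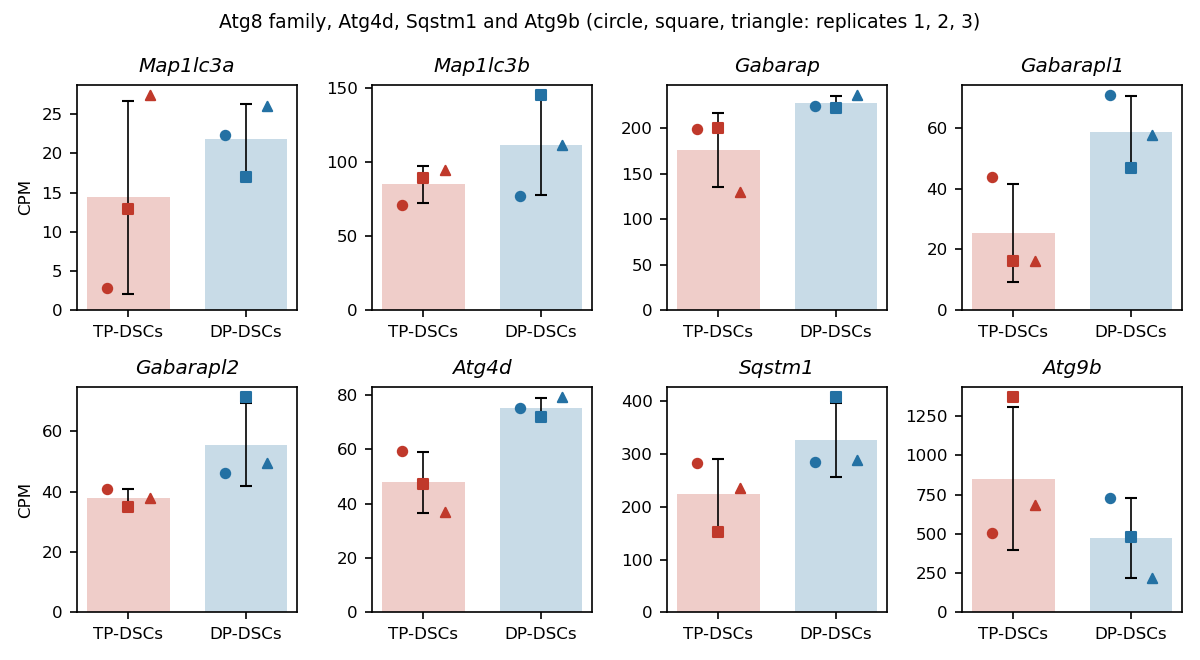
CPM (linear axes from 0) of the 5 Atg8 family genes, Atg4d, Sqstm1 and Atg9b, with TP-DSCs left of DP-DSCs in each panel; bars are means, error bars SD over 3 libraries, and circles, squares and triangles are replicates 1, 2 and 3. On this CPM without TMM scaling, Gabarapl1, Gabarapl2, Gabarap, Atg4d and Sqstm1 have all TP-DSC points below all DP-DSC points. The margin is narrow in Sqstm1 (283 against 284 CPM), and Map1lc3a, Map1lc3b and Atg9b overlap. After TMM scaling Gabarapl1, Gabarap and Sqstm1 overlap as well.

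The promoters of the 3 genes with the smallest p, all lower in TP-DSCs, and of Atg3, the member whose promoter held the full TFEB-type motif, are shown here as the 250 bases before the RefSeq start (build GRCm38.p6, 5′ to 3′). Promoter sequences in RefSeq were matched for 27 of the 33 genes. Capitals mark TCACGTGA (the core of the CLEAR element that the lysosome and autophagy regulator TFEB recognises), CACGTG (its inner E-box, counted again inside the longer motif), TGACNNNGC (the antioxidant response element), GGGCGG (the GC box) and CCAAT, each searched on both strands.
Atg4d, chr9:21265035-21265284, plus strand: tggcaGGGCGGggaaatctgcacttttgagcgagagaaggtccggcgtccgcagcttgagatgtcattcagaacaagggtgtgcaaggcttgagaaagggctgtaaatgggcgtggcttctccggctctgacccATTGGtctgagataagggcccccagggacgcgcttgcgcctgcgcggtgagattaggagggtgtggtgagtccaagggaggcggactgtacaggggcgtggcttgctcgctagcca
Gabarapl1, chr6:129532942-129533191, plus strand: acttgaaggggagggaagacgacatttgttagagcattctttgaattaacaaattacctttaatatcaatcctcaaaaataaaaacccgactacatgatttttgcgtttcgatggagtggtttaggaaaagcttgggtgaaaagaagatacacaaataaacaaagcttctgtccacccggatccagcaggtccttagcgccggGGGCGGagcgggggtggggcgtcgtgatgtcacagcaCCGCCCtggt
Gabarapl2, chr8:111940453-111940702, plus strand: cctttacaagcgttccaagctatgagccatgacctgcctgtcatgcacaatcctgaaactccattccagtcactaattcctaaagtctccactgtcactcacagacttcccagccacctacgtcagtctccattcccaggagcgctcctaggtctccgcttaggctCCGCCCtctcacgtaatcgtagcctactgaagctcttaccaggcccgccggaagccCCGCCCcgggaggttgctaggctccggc
Atg3, chr16:45158579-45158828, plus strand: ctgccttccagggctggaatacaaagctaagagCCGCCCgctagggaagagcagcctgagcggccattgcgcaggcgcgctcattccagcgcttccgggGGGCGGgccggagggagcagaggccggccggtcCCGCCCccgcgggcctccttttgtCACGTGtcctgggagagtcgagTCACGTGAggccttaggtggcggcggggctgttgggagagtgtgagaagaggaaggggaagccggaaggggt
The Gabarapl1 and Gabarapl2 windows each held 2 GC boxes and none of the other motifs, and the Atg4d window held 1 GC box and 1 CCAAT. The Atg3 window held TCACGTGA with its first base 72 bases before the start and another CACGTG at 94 bases, beside 3 GC boxes. TCACGTGA was found in 1 of the 27 member promoters and in 1.58% of the 11386 promoters of tested genes. CACGTG was in 3 of 27 (Atg3, Atg5 and Atg7), against 8.5% of those promoters, and TGACNNNGC in 2 of 27 (Atg13 and Ulk2), against 12.0%. GC boxes were in 70.4% of member promoters and in 58.7% of promoters of tested genes, and CCAAT in 29.6 and 35.6%. The GC box and CCAAT were added to the search after the values were seen. A match is a run of letters and says nothing of whether a factor binds there.

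Atg3 itself, the enzyme that transfers Atg8 proteins to the lipid, had 46.2, 49.5 and 76.5 CPM in TP-DSCs and 66.9, 78.7 and 54.1 CPM in DP-DSCs. The groups overlapped, with a log2 fold change of -0.23 ± 0.26 (SE; edgeR adjusted p = 0.999). Of the 7 genes of the conjugation system, 5 lay below 0 with a median of -0.23 and none passed. Atg16l2, a paralog of the scaffold gene Atg16l1, was the member with the lowest level per kilobase, with 3.09, 4.17 and 0 CPM in TP-DSCs and 5.34, 12.1 and 6.25 CPM in DP-DSCs. All DP-DSC libraries lay above all TP-DSC libraries, yet among all genes with a mean of 3.94 to 15.8 CPM in DP-DSCs, 21.6% were without reads in TP-DSCs replicate 3, as Atg16l2 was (no reads in that library allow up to 0.0966 CPM, counting error only). Its log2 fold change was -1.68 ± 1.76 (SE; edgeR adjusted p = 0.999). Atg10, the E2-like enzyme that joins ATG12 to ATG5, had 14.2, 0 and 2.90 CPM in TP-DSCs and 4.76, 4.74 and 5.03 CPM in DP-DSCs. The DP-DSC libraries were nearly equal and the TP-DSC libraries spanned them on both sides.

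Atg7, the E1-like enzyme that activates both conjugation arms, ranged from 8.01 to 34.9 CPM in TP-DSCs and from 20.5 to 31.3 CPM in DP-DSCs. Atg5 ranged from 18.3 to 60.2 CPM in TP-DSCs and from 40.1 to 60.4 CPM in DP-DSCs. Atg12, the ubiquitin-like partner of ATG5, ranged from 27.9 to 60.4 CPM in TP-DSCs and from 43.1 to 63.8 CPM in DP-DSCs. For Atg16l1, whose protein directs conjugation to the membrane, the ranges were 34.5 to 80.9 CPM in TP-DSCs and 45.7 to 58.3 CPM in DP-DSCs. All 4 overlapped between the groups, and each had its lowest library among TP-DSCs. Atg7 and Atg16l1 had their highest library there as well.

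The 3 cargo receptors did not share a direction. Sqstm1, whose product p62 binds ubiquitinated cargo and is itself degraded by autophagy, had 283, 152 and 234 CPM in TP-DSCs and 284, 406 and 288 CPM in DP-DSCs. TP-DSCs replicate 1 was level with the lower DP-DSC libraries, and the log2 fold change was -0.54 ± 0.28 (SE; 95% interval -1.20 to 0.13; edgeR adjusted p = 0.999). Nbr1, a receptor related to p62, had 216, 237 and 171 CPM in TP-DSCs and 167, 178 and 170 CPM in DP-DSCs. TP-DSCs replicate 3 lay within the DP-DSC range and the others above it, with a log2 fold change of 0.27 ± 0.19 (SE; edgeR adjusted p = 0.999). The ratio of Sqstm1 to Nbr1 reads was 1.31, 0.642 and 1.37 in TP-DSCs and 1.70, 2.29 and 1.69 in DP-DSCs, lower in every TP-DSC library than in any DP-DSC library. This ratio too was chosen after the values were seen. The other ratios computed, Gabarapl1 over Gabarap, Map1lc3b over Map1lc3a and Ulk1 over Ulk2, overlapped between the groups. Optn (optineurin), a receptor for damaged mitochondria and bacteria, had a log2 fold change of -0.01 ± 0.36 (SE), ranging from 36.3 to 56.5 CPM in TP-DSCs and from 30.5 to 59.6 CPM in DP-DSCs.

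Atg9b, which encodes the less widely expressed of the ATG9 lipid scramblases, had the highest mean CPM of the 33 genes. It stood at 504, 1369 and 682 CPM in TP-DSCs and at 727, 480 and 220 CPM in DP-DSCs. TP-DSCs replicate 2 was far above the rest, DP-DSCs replicate 3 far below, and the groups overlapped. The log2 fold change was 0.79 ± 0.50 (SE; 95% interval -0.38 to 1.97; edgeR unadjusted p = 0.155, adjusted p = 0.999). It went in opposite directions by library name, with a difference in log2 CPM of -0.53 in the pair named 3840 and of 1.57 in the 4 libraries named 4140. Atg9b lies on chromosome 5 from 24384181 to 24392143 (GRCm38, minus strand), where its exons overlap those of Nos3 on the opposite strand. Nos3 had no reads in TP-DSC libraries and at most 0.460 CPM in DP-DSC libraries. Atg9a, its widely expressed paralog, had 77.1, 51.5 and 33.6 CPM in TP-DSCs and 53.9, 57.0 and 38.9 CPM in DP-DSCs, with a log2 fold change of 0.13 ± 0.37 (SE).

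The lipid transfer genes Atg2a and Atg2b had log2 fold changes of 0.10 ± 0.32 and 0.10 ± 0.27 (SE). Atg2a had 37.3, 88.5 and 57.4 CPM in TP-DSCs and 49.0, 69.7 and 49.3 CPM in DP-DSCs. Atg2b had 65.0, 85.9 and 133 CPM in TP-DSCs and 97.0, 84.7 and 77.2 CPM in DP-DSCs. In both genes the TP-DSC libraries enclosed the DP-DSC range. Wipi1 and Wipi2, which read the PI3-kinase product on the membrane, had log2 fold changes of -0.17 ± 0.53 and -0.35 ± 0.41 (SE), and both overlapped between the groups.

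In the PI3-kinase complex, Pik3c3 (the lipid kinase VPS34) had 59.3, 27.2 and 50.5 CPM in TP-DSCs and 64.1, 64.5 and 61.9 CPM in DP-DSCs. The DP-DSC libraries agreed within 1.04-fold (highest over lowest), and TP-DSCs replicate 2 was the low one. Its log2 fold change was -0.47 ± 0.34 (SE; edgeR adjusted p = 0.999). Becn1 (beclin 1), the scaffold of the complex, had 108, 131 and 225 CPM in TP-DSCs and 122, 160 and 125 CPM in DP-DSCs, a log2 fold change of 0.16 ± 0.26 (SE). Uvrag, which replaces ATG14 in the form of the complex that acts on endosomes, had 39.6, 43.7 and 28.3 CPM in TP-DSCs and 31.1, 33.3 and 34.7 CPM in DP-DSCs, a log2 fold change of 0.16 ± 0.30 (SE). Atg14, which directs the complex to autophagosomes, ranged from 2.97 to 17.96 CPM in TP-DSCs and from 9.88 to 25.7 CPM in DP-DSCs. None of the 4 passed in edgeR.

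In the initiation complex all 4 log2 fold changes lay below 0 (that of Rb1cc1 by less than 0.01), with a median of -0.22, and none passed in edgeR. Ulk2, a kinase partly redundant with ULK1, had 17.3, 6.82 and 13.4 CPM in TP-DSCs and 14.5, 33.4 and 20.3 CPM in DP-DSCs, a log2 fold change of -0.83 ± 0.59 (SE; edgeR adjusted p = 0.999). Ulk1 ranged from 35.1 to 74.0 CPM in TP-DSCs and from 34.0 to 72.9 CPM in DP-DSCs, with a log2 fold change of -0.07 ± 0.37 (SE). Atg13, the regulatory subunit, ranged from 15.4 to 47.1 CPM in TP-DSCs and from 29.8 to 40.0 CPM in DP-DSCs. Rb1cc1 (FIP200), the scaffold, ranged from 6.53 to 49.6 CPM in TP-DSCs and from 29.4 to 34.3 CPM in DP-DSCs, around equal fitted means. A further subunit, ATG101, is not among the 33 because the files list it under its older symbol 9430023L20Rik, which RefSeq pairs with Atg101. That row had 58.0, 61.0 and 50.2 CPM in TP-DSCs and 40.4, 38.7 and 40.7 CPM in DP-DSCs, and its groups were separate, TP-DSCs being the higher. It was looked up after the values of the 33 were seen. Its log2 fold change was 0.48 ± 0.23 (SE; edgeR unadjusted p = 0.0733, adjusted p = 0.965).

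**Figure D3:**
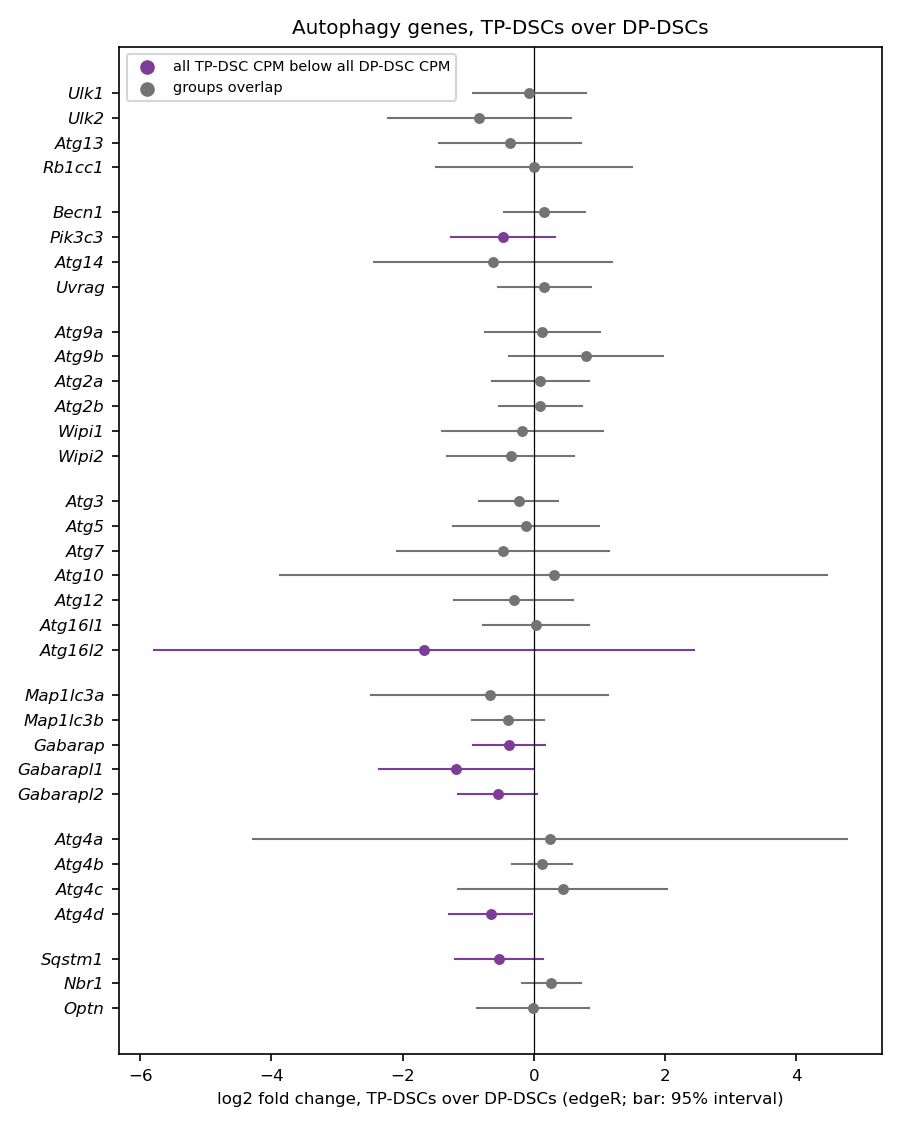
Log2 fold change of TP-DSCs over DP-DSCs (edgeR, x axis) of the 33 autophagy genes in order of role, with 95% intervals as bars; purple marks the 7 genes whose TP-DSC CPM values all lie below their DP-DSC values before TMM scaling. Every interval but those of Gabarapl1 and Atg4d includes 0, and all 5 Atg8 family points (Map1lc3a to Gabarapl2) lie left of 0.

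Levels of different genes were compared per length, as CPM per kilobase of the principal protein-coding transcript in GENCODE M21. Atg9b averaged 218 ± 117 CPM per kb in TP-DSCs and 122 ± 65.0 CPM per kb in DP-DSCs (SD, n = 3 each). Gabarap averaged 131 ± 30.1 and Sqstm1 110 ± 32.4 CPM per kb in TP-DSCs, against 169 ± 5.44 and 160 ± 34.1 CPM per kb in DP-DSCs. The first 3 ranks over all 6 libraries therefore differed by less than their spread. Nbr1 came next with 43.4 ± 7.07 CPM per kb in TP-DSCs and 35.8 ± 1.15 CPM per kb in DP-DSCs, well below those 3, and was followed closely by Map1lc3b and Becn1. At the low end, Ulk2, Atg4a and Atg16l2 averaged 2.18, 2.20 and 0.375 CPM per kb in TP-DSCs and 3.96, 1.76 and 1.22 CPM per kb in DP-DSCs.

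**Figure D4:**
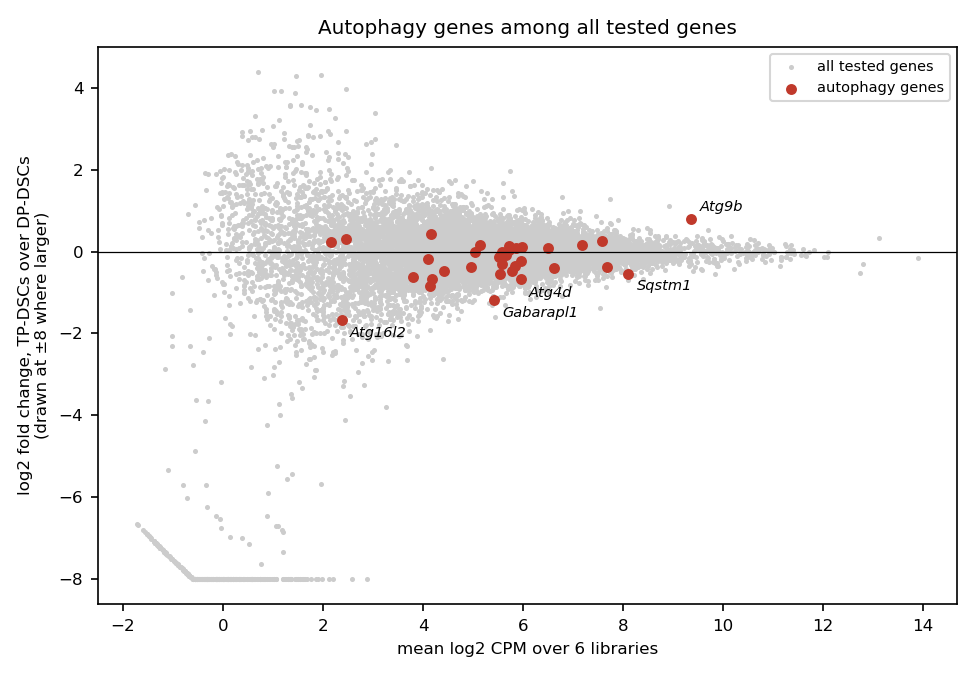
Log2 fold change of TP-DSCs over DP-DSCs against mean log2 CPM for all 11925 tested genes (grey) and the 33 autophagy genes (red), with values beyond 8 drawn at that limit. Most autophagy genes lie within the cloud of all genes. Labels mark Atg16l2 (-1.68), Gabarapl1 (-1.18), Atg4d (-0.66), Sqstm1 (-0.54) and Atg9b (0.79). Their rank among genes of like abundance was not computed.

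The autophagy genes varied more among TP-DSC libraries than among DP-DSC libraries. The highest library exceeded the lowest by more than 2-fold for 20 of 33 genes in TP-DSCs and for 6 of 33 in DP-DSCs. The same shares over all tested genes were 52.6% in TP-DSCs and 25.4% in DP-DSCs. The range was wider in TP-DSCs for 27 of the 33, 81.8% against 74.8% of all tested genes, so this spread was near that of the libraries as a whole. Rb1cc1 spanned 7.52-fold in TP-DSCs and 1.17-fold in DP-DSCs, and Map1lc3a 9.42-fold and 1.53-fold. Both of these genes were lowest in TP-DSCs replicate 1, at 6.53 and 2.85 CPM. The part of each library in the wider range was not tested. Replicates 1, 2 and 3 held the lowest TP-DSC value for 14, 8 and 11 of the 33 genes and the highest for 12, 11 and 10.

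**Figure D5:**
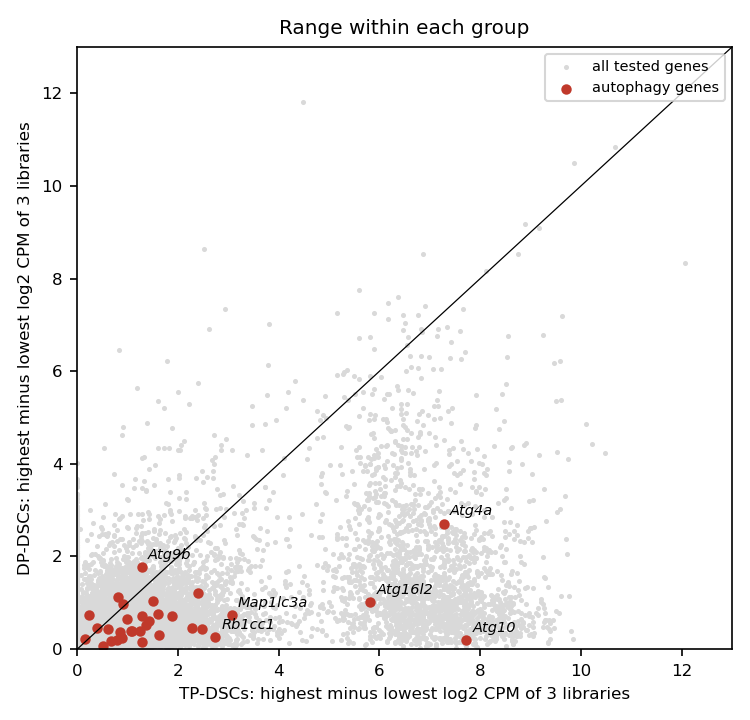
Highest minus lowest log2 CPM (TMM-scaled) over the 3 TP-DSC libraries (x axis) and the 3 DP-DSC libraries (y axis) for all tested genes (grey) and the autophagy genes (red), with the line of equal range. Of the 33 autophagy genes, 27 lie below the line, and Atg10, Atg4a and Atg16l2, each without reads in 1 TP-DSC library, lie far to the right.

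By library name, differences in mean log2 CPM were taken without TMM scaling. On these, 15 members were lower in TP-DSCs both in the single pair named 3840 and in the 4 libraries named 4140. A further 3 were higher in both (Uvrag, Atg4b and Nbr1) and 15 went in opposite directions. The same counts over all tested genes were not computed. Atg4a was among the 15 lower in both, with -1.28 in libraries named 4140. There it had 11.6 and 0 CPM in TP-DSCs and 0.918 and 4.995 CPM in DP-DSCs. The edgeR fit of libraries named 4140 alone gave log2 fold changes of 0.88 for Atg4a and -0.003 for Atg4b. In that fit 21 of the 33 had a log2 fold change below 0, beside 54.3% of all tested genes. This is another measure than the counts by library name and gives no background for them. All 5 Atg8 genes, Atg4d and Sqstm1 were among the 15 lower in both. The difference in log2 CPM was -0.69 and -1.68 for Gabarapl1, -0.34 and -0.85 for Atg4d and -0.17 and -0.71 for Gabarapl2, in libraries named 3840 and 4140 in that order. For Sqstm1 it was -0.01 and -0.86, so its lower value came from the libraries named 4140. The pair named 3840 has no replicate check.

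A second list held 42 autophagy genes outside the 33, for membrane fusion, selective receptors, regulators and transcription factors. Of these 41 were tested and none passed in edgeR, with 27 below 0 and a median log2 fold change of -0.13. An unadjusted p under 0.05 was found for 2, or 4.88% beside the 6.1% of all tested genes, namely Snap29 and Lamp1. Snap29, a SNARE that joins autophagosomes to lysosomes together with syntaxin 17 and VAMP8, had 15.99, 21.2 and 14.9 CPM in TP-DSCs, against 35.4, 37.6 and 43.8 CPM in DP-DSCs. Every TP-DSC library held fewer than any DP-DSC library by a wide margin. The log2 fold change was -1.18 ± 0.34 (SE; 95% interval -1.98 to -0.39), 0.440 times the DP-DSC level (edgeR unadjusted p = 0.00929, adjusted p = 0.254), and the differences in libraries named 3840 and 4140 were -1.14 and -1.19. The partners did not stand apart in this way, with log2 fold changes of -0.41 ± 0.24 for Vamp8 and 0.07 ± 0.32 for Stx17 (SE) and overlapping groups.

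Lamp1, a major protein of the lysosomal membrane, had 602, 596 and 510 CPM in TP-DSCs and 700, 900 and 745 CPM in DP-DSCs, a log2 fold change of -0.46 ± 0.19 (SE; edgeR unadjusted p = 0.0466, adjusted p = 0.787). Its relative Lamp2, which also serves chaperone-mediated autophagy, had a log2 fold change of -0.36 ± 0.18, and the SNARE gene Ykt6 one of -0.48 ± 0.23 (SE; edgeR adjusted p = 0.987 and 0.981). Wdfy3, a large adaptor for aggregates, had a log2 fold change of 0.64 ± 0.35 (SE; edgeR adjusted p = 0.999). Exons of Snap29 and Lamp1 overlap those of Pi4ka and Grtp1 on the opposite strand.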

How the data were processed

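The deposited files hold 1 raw read count per gene symbol for each of 3 TP-DSC and 3 DP-DSC libraries, whole numbers with different totals. Per the submitters' processing notes the authors worked with STAR 2.7.3a, Partek and DESeq2 3.5 on build mm10, and per the labels' protocols the kit was stranded and polyA-selected. What each tool did, and the strand setting of the counting, is not given in the sources used here. Rows for reads in no gene and for ambiguous reads (1.09 to 1.86% of reads) entered neither library sizes nor tests. CPM is the count scaled to 1000000 gene reads of a library, without further scaling unless TMM (the trimmed mean of M values) is named.

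Counts were compared in R 4.3.3 with edgeR 4.0.16 (filterByExpr with a minimum count of 10 and total of 15, TMM, quasi-likelihood F test, group as the only term) over all 11925 genes kept, with Benjamini-Hochberg adjustment at 0.05. Fold changes are TP-DSCs over DP-DSCs. The SE is the log2 fold change over the square root of F. Differences by library name are between group means of log2 CPM (prior count 2, no TMM scaling). Replicate numbers are only names in accession order. Chi-square values between replicates of a group ran from 115 to 306.7 per degree of freedom, so no library of a group was a copy of another. The libraries were counted as separate samples, but these values do not show whether they came from separate cultures. The scripts were tested on 5 simulated data sets drawn with edgeR's own estimates of spread. There edgeR called 2.0% of genes changed 2-fold and 34.8% of genes changed 4-fold, with 1.6 false calls on average. DESeq2 called 16.8 and 57.6%, with 66.8 false calls. The absence of a call in edgeR thus by itself says little about changes of 2-fold. The intervals of the log2 fold change stayed within 2-fold either way for some members, such as Atg4b (-0.34 to 0.58) and Nbr1 (-0.18 to 0.72). For others, such as Gabarapl1 (-2.36 to -0.01) and Atg16l2 (-5.79 to 2.44), they reached beyond it. Intervals are model-based, and reads without molecular identifiers are not independent molecules.

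The autophagy genes, the second list and the markers were chosen with earlier results of these data known. Every member is named under its role. Values per library are given for up to 10 members per direction with the smallest p, members whose groups do not overlap, the 5 with the highest CPM and the Atg8 family, and the 6 genes of the second list with the smallest p are named. The Atg101 row and the read ratios fall outside that rule. Transcript lengths, coordinates and overlaps came from GENCODE M21 (GRCm38, the assembly of mm10), promoter sequences from RefSeq (GRCm38.p6). Alternatives were other scalings, tests (DESeq2 1.42.0, limma-voom in limma 3.58.1) and filters, the library name number as a block, libraries named 4140 alone, and leaving out each library.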

Additional observations from a re-analysis of the deposited data

How the results depend on the processing

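With 3 libraries a group, depth limits little for most of the 33 genes. Atg10, Atg4a and Atg16l2 were scarce, with at most 354, 198 and 394 reads in any library, and each had none in 1 TP-DSC library. Among genes within 2-fold of their DP-DSC means, 40.1, 47.3 and 21.6% also lacked reads there. The library was replicate 2 for Atg10 and replicate 3 for the others. In edgeR and limma-voom no gene was called under any setting, left-out libraries included, against 93 genes in DESeq2 and 267 in DESeq2 on all genes with reads (chosen after seeing the data), none of the 33 in either. The second list gave 1 call, Snap29, in that last setting, where its unadjusted p was 6.7e-05. The cause of these differences was not tested. Autophagy genes at an unadjusted p under 0.05 numbered 2 as reported, 1 in DESeq2, 5 with libraries named 4140 alone, where 12.2% of all genes did, and 0 to 6 when each library was left out, where 5.09 to 14.5% of all genes did. The 6 and the 14.5% arose without TP-DSCs replicate 1, and the 0 without DP-DSCs replicate 2 or 3. The median log2 fold change of the 33, -0.17, was -0.36 in limma-voom and -0.34 with the library name number as a block, where the median of all genes was -0.15 and -0.07, and -0.27 to -0.13 with libraries left out. Between 19 and 23 genes lay below 0 with libraries left out. Members lower in TP-DSCs without overlap numbered 7 on CPM, 3 on TMM-scaled CPM (added after seeing the data), 3 with DESeq2 size factors, 12 with libraries named 4140 alone and 7 to 11 with libraries left out, where 23.6% and 11.1 to 18.5% of all tested genes did so. Members higher without overlap numbered 0 on CPM, 1 with DESeq2 size factors, 4 with libraries named 4140 alone and 0 to 2 with libraries left out, where 17% and 4.81 to 12.7% of all tested genes did so. Leaving out a library raises such counts by construction, since fewer values must be separate. Among single genes, Gabarapl1 lay between -1.95 (without TP-DSCs replicate 1) and -0.92 (without TP-DSCs replicate 3), Atg4d between -0.93 and -0.47 for the same libraries left out, and Atg9b between 0.31 (without TP-DSCs replicate 2) and 1.51 (libraries named 4140 alone). The replicate numbers come from accession order and pair no samples. The block on the library name number left the count at an unadjusted p under 0.05 at 2 of the 33, Gabarapl1 and Atg4d, and no gene was called.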

Other observations

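Genes of mitochondrial autophagy in the second list, named here after their values were seen, went in different directions and none passed in edgeR. Pink1, the kinase that marks damaged mitochondria, had 100.3, 19.2 and 13.4 CPM in TP-DSCs replicates 1, 2 and 3 and 78.4, 90.9 and 85.7 CPM in DP-DSCs replicates 1, 2 and 3. The DP-DSC libraries were close together, while TP-DSCs replicate 1 lay above them and the other 2 far below. Its log2 fold change was -0.88 ± 0.75 (SE; edgeR adjusted p = 0.999). Bnip3, a hypoxia-responsive receptor on mitochondria, had 566, 344 and 357 CPM in TP-DSCs and 382, 57.9 and 386 CPM in DP-DSCs, a log2 fold change of 0.59 ± 0.66 (SE). DP-DSCs replicate 2 was the one library far from the rest. Its paralog Bnip3l had 52.8, 59.1 and 146.9 CPM in TP-DSCs and 57.7, 35.4 and 78.5 CPM in DP-DSCs, a log2 fold change of 0.54 ± 0.46 (SE).

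None of the 5 tested transcription factors of autophagy and lysosome genes in the second list passed in edgeR, and their log2 fold changes ran from -0.46 (Foxo3, with overlapping groups) to 0.08 (Zkscan3). Tfeb had 15.6, 4.05 and 27.3 CPM in TP-DSCs and 14.7, 19.1 and 17.2 CPM in DP-DSCs, with a log2 fold change of -0.13 ± 0.73 (SE), and both the lowest and the highest library were TP-DSCs. Tfe3 had 28.4, 33.7 and 43.2 CPM in TP-DSCs and 33.1, 37.6 and 37.7 CPM in DP-DSCs, a log2 fold change of -0.07 ± 0.27 (SE). Mitf, their relative, was too scarce to be tested.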
